A study of Mus musculus with 27 samples.

Results

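The acinar genes described here are 10 genes of the exocrine pancreas, Cpa1, Cpb1, Cela1, Cela2a, Cela3b, Pnlip, Cel, Ctrb1, Ptf1a and Bhlha15. They were chosen by name for their known function, with earlier results of these data known. Each was found as 1 row in both pancreatic count tables, 10 of 55536 rows in the embryonic table and 10 of 26487 in the islet table. The study compared mice carrying a mutated SD domain of Nkx2.2, a homeodomain transcription factor of islet cells, with controls. Whole pancreata were taken at E15.5, in mid-gestation, for 3 control and 4 Nkx2.2 SDmut libraries. Islets were taken at 8 weeks for 2 control libraries and 3 with the SD mutation restricted to beta cells (betaSDmut), and at 4 weeks for 2 control libraries and 2 whose label, betaKO, denotes loss of Nkx2.2 from beta cells. The driver of the beta-cell alleles, the alleles that the controls carried, the sex and any pooling of animals are not given in the sources used here. The 4-week samples are labelled as genomic DNA and refer to another publication for their extraction, although their columns hold counts per gene like the others, and they are the only 4-week samples. Motor neuron progenitors made from mouse embryonic stem cells gave 8 libraries at day 4 of differentiation. Of these, 3 were untreated cells of the iNkx2.2 line (pMN), and doxycycline at 1 µg/ml for about 16 h had been given to 3 of the iNkx2.2 line and 2 of the iSDmut line. These libraries and the binding of Nkx2.2 in MIN6 (a beta-cell line from a mouse insulinoma) complete the series.

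Acinar cells make up most of the adult pancreas and secrete digestive enzymes, many of them as inactive zymogens stored in granules. Ptf1a is a basic helix-loop-helix protein that, with an E-protein partner and Rbpj or Rbpjl, forms the PTF1 complex. PTF1 binds an E-box and a TC-box lying close together in the promoters of enzyme genes. Bhlha15, also called Mist1, organises the secretory apparatus of mature serous cells, and is not restricted to the pancreas. Islets are freed from the exocrine tissue by digestion, and purified islets commonly keep some acinar RNA.

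The genes lie on 8 chromosomes of the mouse genome build GRCm38 (GENCODE vM21). The carboxypeptidase genes are Cpa1 at chr6:30639218-30645363 and Cpb1 at chr3:20248264-20275733, whose products trim peptides from the carboxyl end. The elastase genes are Cela1 at chr15:100674421-100687921, Cela2a at chr4:141814962-141826160 and Cela3b at chr4:137420999-137430540. Ctrb1, encoding chymotrypsinogen B, lies at chr8:111686519-111691010. The lipase genes are Pnlip (pancreatic triglyceride lipase, chr19:58652498-58681788) and Cel (carboxyl ester lipase, chr2:28555795-28563403). The regulators are Ptf1a at chr2:19445663-19447501 and Bhlha15 at chr5:144190286-144194441.

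The 250 bases before the RefSeq start of each gene were read from RefSeq promoters (build GRCm38.p6), which held all 10 genes. The short motifs of PTF1 sites, the E-box CANNTG and the TC-box TTTCCC, were searched on both strands, along with CAGCTG, which is one form of the E-box, and the Nkx2 core CACTTNA. An E-box lay in 8 of the 10 windows and in 66.2% of all 32851 promoters, and a TC-box in 5 of 10 and in 21.9%. CAGCTG lay in 2 of 10 and in 13.0%, and CACTTNA in 1 of 10, that of Cela1, and in 10.1%. An E-box and a TC-box at most 25 bases apart, a criterion added after the files were opened, lay in 4 of the 10 windows and in 4.91% of all promoters. Those 4 windows are shown 5′ to 3′ in the direction of the gene, with E-boxes and TC-boxes in capitals (a TC-box on the other strand reads GGGAAA). They lie at chr8:111691011-111691260 for Ctrb1, chr15:100687921-100688170 for Cela1, chr2:28563404-28563653 for Cel and chr6:30638968-30639217 for Cpa1.
Ctrb1: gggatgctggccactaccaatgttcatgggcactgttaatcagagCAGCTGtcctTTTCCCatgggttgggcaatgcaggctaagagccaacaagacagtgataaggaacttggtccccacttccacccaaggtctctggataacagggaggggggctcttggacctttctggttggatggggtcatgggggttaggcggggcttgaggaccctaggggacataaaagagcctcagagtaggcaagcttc
Cela1: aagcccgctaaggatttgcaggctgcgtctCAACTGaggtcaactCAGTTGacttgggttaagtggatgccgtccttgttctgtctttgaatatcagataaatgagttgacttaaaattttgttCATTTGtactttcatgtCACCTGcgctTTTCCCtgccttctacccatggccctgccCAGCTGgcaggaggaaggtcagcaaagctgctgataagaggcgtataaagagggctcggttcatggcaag
Cel: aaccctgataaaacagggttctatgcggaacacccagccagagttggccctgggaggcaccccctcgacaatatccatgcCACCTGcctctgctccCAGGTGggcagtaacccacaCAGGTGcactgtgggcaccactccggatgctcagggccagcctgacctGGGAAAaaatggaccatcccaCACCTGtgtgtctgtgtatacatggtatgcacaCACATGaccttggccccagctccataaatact
Cpa1: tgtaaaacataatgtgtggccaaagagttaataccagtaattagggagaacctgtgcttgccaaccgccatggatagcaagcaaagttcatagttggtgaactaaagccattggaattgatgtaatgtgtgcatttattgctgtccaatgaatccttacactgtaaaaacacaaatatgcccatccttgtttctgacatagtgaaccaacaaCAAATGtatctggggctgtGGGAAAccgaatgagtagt
The smallest gap between an E-box and the TC-box was 4 bases in Ctrb1 and in Cela1, 13 in Cpa1 and 15 in Cel. The windows of Ptf1a and Pnlip held neither motif. RefSeq and GENCODE starts differ for some of the genes. The Pnlip window (chr19:58670115-58670364) lies before a RefSeq start that is 17.9 kb inside the GENCODE gene, so the bases before the GENCODE start of Pnlip were not searched. Of the Cela2a, Cela3b and Cela1 windows, 155, 20 and 1 bases lie inside the GENCODE gene. These are matches of letters, and binding of PTF1 was not measured.

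Total counts per library were 38447596 to 41840638 in the embryonic pancreas, 12398041 to 32385406 in islets and 17757991 to 46840701 in progenitors. No pair of libraries held identical counts. Nkx2-2 RNA, the targeted gene, was at 74.8 ± 16.3 CPM (counts per 1000000 counts of the TMM-scaled library, mean ± SD, n = 3) in embryonic controls and at 69.6 ± 17.7 (n = 4) in SDmut. It was at 95.6 ± 9.98 (n = 2) and 89.8 ± 12.4 (n = 3) in 8-week control and betaSDmut islets. In 4-week islets it was at 103 and 76.2 CPM in controls and 92.8 and 64.5 CPM in the libraries labelled betaKO, so the RNA level of the gene did not separate these libraries from their controls. Which part of the gene was deleted is not given in the sources used here. Islet hormone and endocrine genes summed to 231208 to 296255 CPM in the islet libraries. The labels do not say that all samples came from separate animals, so p-values measure the spread between these libraries.

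In the embryonic pancreas the 10 acinar genes took 1.11% to 3.53% of all counts, most of it from Ctrb1. Compared per length of exon, Ctrb1 was highest, with a median over the 7 libraries of 17206 CPM per kb, followed by Cpa1 at 3008, Cel at 667 and Cela1 at 258. Cela3b (173), Cela2a (134) and Cpb1 (102 CPM per kb) followed, with overlapping ranges. The regulators Bhlha15 and Ptf1a had medians of 80.5 and 80.2 CPM per kb. Pnlip was last at 0.474 CPM per kb, from 7 to 75 reads per library.

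SDmut and control pancreata were compared to ask whether the SD mutation altered exocrine differentiation. None of the 10 genes was called (edgeR quasi-likelihood test, Benjamini-Hochberg adjusted p under 0.05), beside 0.00534% of the 18723 genes tested, and DESeq2 also called none. At an unadjusted p under 0.05 the count was 0 of 10, beside 2.54% of all genes. The median log2 fold change of the 10 genes was 0.53, beside 0.01 over all genes tested.

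Ctrb1 was at 17685, 9600 and 6733 CPM in controls 1 to 3 and at 15107, 7525, 23502 and 17144 CPM in SDmut 1 to 4. The groups overlapped, with 1 high control and 1 low mutant. Its log2 fold change was 0.48 (SE 0.44, 95% interval -0.55 to 1.51, adjusted p = 1.000).
Cpa1, which also marks the multipotent tips of the early embryonic epithelium, was at 6551, 4198 and 2837 CPM in controls and 5264, 2935, 7334 and 6768 CPM in SDmut. The order of the libraries was nearly that of Ctrb1. Its log2 fold change was 0.30 (SE 0.38, interval -0.58 to 1.18). Cel, at 778 to 1935 CPM in controls and 872 to 2225 CPM in SDmut, gave 0.33 (interval -0.59 to 1.25).
The elastase genes and Cpb1 had larger estimates than Ctrb1, Cpa1 and Cel, with intervals that also held 0. Cela2a was at 348, 113 and 71.6 CPM in controls and 348, 87.2, 416 and 230 CPM in SDmut, a log2 fold change of 0.61 (interval -0.98 to 2.196). Cela1 had the same estimate, 0.61 (interval -0.31 to 1.53), and Cela3b 0.57 (interval -1.01 to 2.16). For Cpb1 it was 0.63 (interval -0.74 to 1.99).
Among the regulators, Ptf1a was at 167, 97.4 and 76.7 CPM in controls and 121, 90.5, 221 and 177 CPM in SDmut. The 2 groups overlapped here as well. The log2 fold change of Ptf1a was 0.42 (interval -0.43 to 1.28) and that of Bhlha15 was 0.24 (interval -0.51 to 0.98).
Pnlip stood alone in having each SDmut library above each control. It was at 0.90, 0.96 and 0.18 CPM in controls and 1.63, 1.04, 1.84 and 1.19 CPM in SDmut, and 1.61% of all genes tested showed the same order. With 7 to 75 reads per library its log2 fold change was 1.06 (SE 0.55, interval -0.23 to 2.34, unadjusted p = 0.0931, adjusted p = 1.000).

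**Figure D1:**
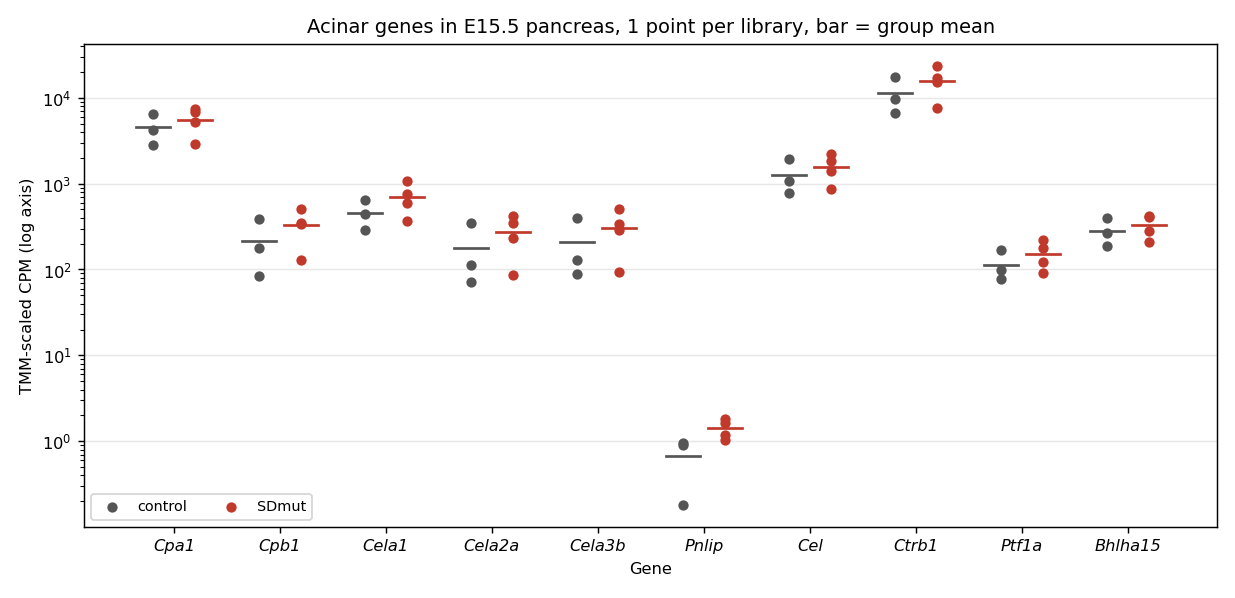
Level of each acinar gene (x axis) in TMM-scaled CPM on a log axis (y axis) in E15.5 pancreas, 1 point per library, with bars at the group means of 3 control and 4 SDmut libraries. The points of the groups overlap for each gene except Pnlip, which at 0.18 to 1.84 CPM lies below all the other genes.

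For each gene except Pnlip the spread among libraries of 1 group, as an SD of log2 CPM, exceeded the log2 fold change. The within-group SD of log2 CPM was 0.50 to 1.08 for the 10 genes, beside a median of 0.28 over all genes tested. The genes moved together across libraries: the summed level of the 10 genes was 28501, 16096 and 11146 CPM in controls 1 to 3 and 23794, 12310, 36194 and 27974 CPM in SDmut 1 to 4. Each gene except Pnlip (r = 0.78) had a Pearson r of 0.94 to 1.00 with the mean log2 CPM of the 10, over 7 libraries, a mean that includes the gene itself. In bulk RNA, fewer acinar cells and less acinar RNA per cell cannot be told apart.

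Within that common movement the genes differed in steepness. Relative to Cpa1, Cel was at 25.6% to 30.3% of the Cpa1 level, Ptf1a at 2.30% to 3.08% and Bhlha15 at 5.34% to 7.22%, so the highest of 7 libraries was 1.19, 1.34 and 1.35 times the lowest. Ctrb1 varied by 1.40-fold relative to Cpa1 and Cela1 by 1.48-fold. Cela3b, Cpb1 and Cela2a varied by 2.26-, 2.33- and 2.62-fold. Cela2a was at 2.53% and 2.70% of Cpa1 in controls 3 and 2 and at 5.31% in control 1, the control with the most acinar RNA. In SDmut it was at 6.61%, 2.97%, 5.68% and 3.40% of Cpa1 in libraries 1 to 4. Absolute levels of Cpb1, Cela2a and Cela3b spanned 6.04-, 5.81- and 5.71-fold over the 7 libraries, against 2.24-fold for Bhlha15, 2.59-fold for Cpa1 and 2.88-fold for Ptf1a.

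Markers of other cell types also differed between the embryonic libraries. The 8 mesenchyme and stellate markers, all detected in each library, summed to 6356, 12339 and 14563 CPM in controls 1 to 3 and to 10033, 15150, 5406 and 6740 CPM in SDmut 1 to 4. The libraries with the most mesenchymal RNA were those with the least acinar RNA. Skeletal muscle markers (8 genes, all detected) summed to 5269 CPM in control 3 and 6010 CPM in SDmut 2, the libraries with the least acinar RNA, and to 14.2 to 82.0 CPM in the other 5. Gut epithelium markers (6 genes) summed to 173 CPM in SDmut 2, where all were detected, and to 18.9 to 31.9 CPM in the other 6 libraries. SDmut 1 was highest in red blood cell markers, at 4629 CPM against 929 to 2346 CPM in the others, and in immune markers, at 410 CPM against 177 to 219 CPM. Duct markers (8 genes, all detected) summed to 779 to 1130 CPM in controls and 705 to 1045 CPM in SDmut. The part of these tissues in the acinar levels was not tested. Without the 2 libraries with muscle RNA the median log2 fold change of the 10 genes was 0.48, with none called.

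**Figure D2:**
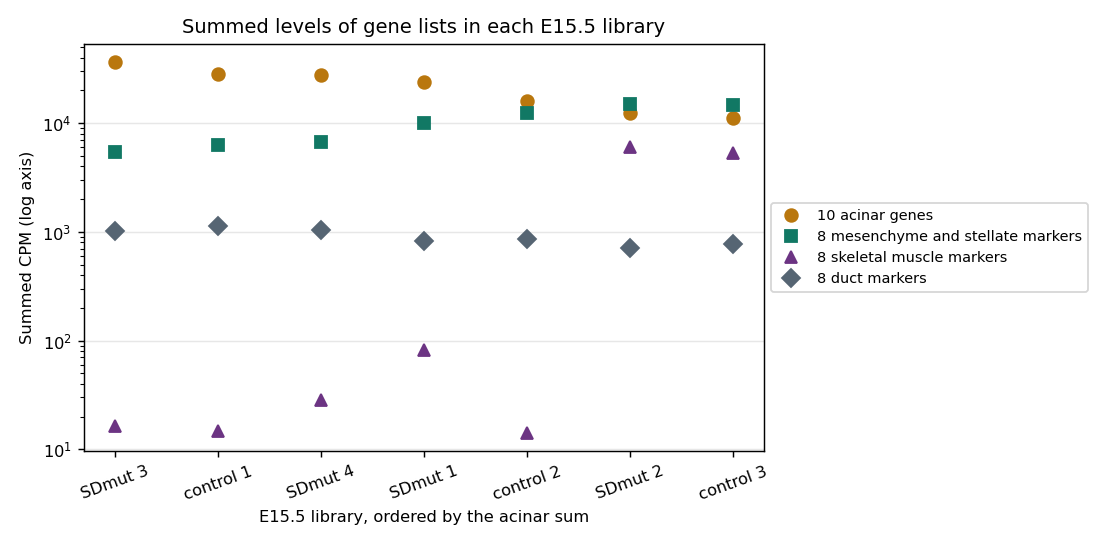
Summed CPM (y axis, log) of the 10 acinar genes and of mesenchyme, skeletal muscle and duct markers in each E15.5 library (x axis), ordered by the acinar sum. From left to right the acinar sum goes from 36194 to 11146 CPM while the mesenchyme sum goes from 5406 to 14563 CPM, and the 2 libraries at the right end carry muscle markers.

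The direction of the embryonic difference varied between sets of libraries that share a number in the sample titles, whose meaning is not given. Among controls 1 and 2 and SDmut 1 and 2, which share a number, the log2 ratio of mutant to control means was negative for 9 of 10 genes, from -0.41 for Bhlha15 to -0.08 for Cela2a, with Pnlip at 0.52. Between control 3 and SDmut 3, which share another number, it was positive for all 10, from 1.13 for Bhlha15 to 3.339 for Pnlip. SDmut 4 had a number of its own. The 2 libraries with muscle RNA and the least acinar RNA fall on opposite sides: SDmut 2 is a mutant of the first set. Control 3 is the only control of the second set, which is a single pair. The title number and these libraries cannot be told apart here. Leaving out control 3 lowered the median of the 10 genes to 0.21, leaving out SDmut 3 to 0.22 and leaving out control 2 to 0.35, and leaving out control 1 raised it to 0.94.

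A further 44 genes of acinar cells were examined in 3 lists: other enzymes and zymogens, granule and secretion genes, and other regulators. In the embryo 43 were tested and none was called by edgeR, while DESeq2 called 1, beside 0.134% of all genes by DESeq2. One had an unadjusted p under 0.05, beside 2.54% of all genes. It was Pla2g1b, encoding a secreted phospholipase and named after its values were seen. Pla2g1b was at 2.47, 1.53 and 0.83 CPM in controls and 4.31, 4.26, 6.83 and 5.77 CPM in SDmut. Its log2 fold change was 1.71 (unadjusted p = 0.00312, adjusted p = 1.000), with each mutant above each control, an order that 1.61% of all genes showed.

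The 5 genes outside the lists whose log2 CPM followed the mean of the 10 most closely in the embryo were Bscl2 (r = 1.00), Gm10334, Gm5424, Laptm4b (each r = 0.99) and Ebp (r = 0.99). Of 12369 genes with a mean log2 CPM of at least 2, 214 had r over 0.95 across the 7 libraries.

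In the authors' deposited table for the embryo, all 10 genes were listed with shrunken log2 coefficients of 0.000203 (Bhlha15) to 0.00325 (Pnlip), none with an adjusted p under 0.05. The direction of that table's contrast is not given in the sources used here, so the sign of its coefficients is not read.

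In islets the 8 enzyme genes were present in each of the 9 libraries at levels that differed by 38.9-fold (Cpa1) to 56.4-fold (Cela3b) between the highest and the lowest library. The 10 genes took 0.638% and 0.398% of counts in 8-week controls and 0.0611%, 0.122% and 0.558% in betaSDmut. They took 0.610% and 0.337% in 4-week controls and 2.07% and 0.734% in betaKO. The lowest library was betaSDmut 1 and the highest betaKO 1. By the authors' FPKM, which allow genes to be compared, Ctrb1 was again highest with a median of 2387 over the 9 libraries, followed by Cela2a at 1549, Cela1 at 1030 and Pnlip at 702. Cpb1 (656), Cpa1 (478), Cel (426) and Cela3b (403 FPKM) followed, with ranges that overlap throughout. Bhlha15 was at 25.1 and Ptf1a at 0.330 FPKM. Pnlip thus ranked 4 of 10 by median in islets and last in the embryo.

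**Figure D3:**
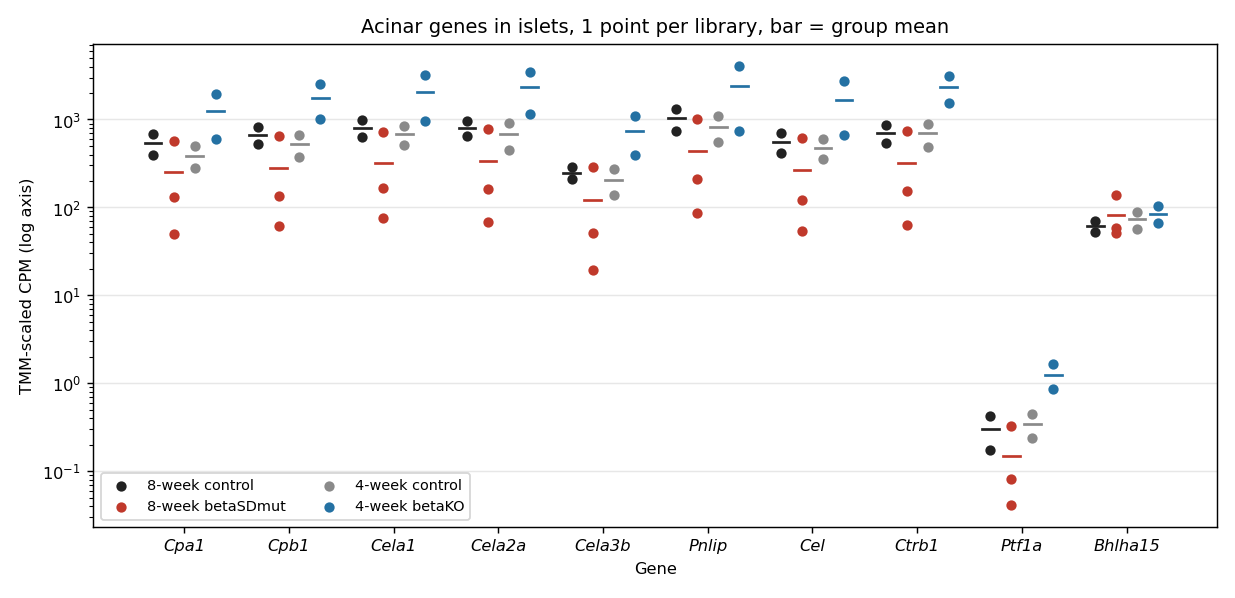
Level of each acinar gene (x axis) in TMM-scaled CPM on a log axis (y axis) in islets, 1 point per library, with bars at the means of 2 or 3 libraries per group. The 8 enzymes show the same pattern: betaSDmut spreads from far below the controls up to their level, and betaKO 1 lies highest, while Bhlha15 stays between 50.7 and 137 CPM.

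At 8 weeks, betaSDmut islets were compared with controls. Of the 9 acinar genes that passed the count filter none was called by edgeR, beside 7.94% of the 15413 genes tested, and none by DESeq2. None had an unadjusted p under 0.05, beside 25.7% of all genes, and for none were the groups separate, beside 45.9% of all genes. The median log2 fold change of the 9 genes was -1.13, beside 0.01 over all genes.

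Ctrb1 was at 876 and 540 CPM in 8-week controls and at 62.8, 152 and 748 CPM in betaSDmut 1 to 3. Pnlip was at 1326 and 733 CPM in controls and at 86.3, 211 and 1007 CPM in betaSDmut. Cela2a, at 954 and 644 CPM in controls, was at 68.3, 163 and 784 CPM in betaSDmut. For each enzyme, betaSDmut 1 and 2 lay below both controls and betaSDmut 3 lay between the controls or above them.
The log2 fold changes of the 8 enzymes ran from -1.32 for Cela1 (SE 1.02, interval -4.04 to 1.39, adjusted p = 0.478) to -1.03 for Cela3b (SE 1.18, interval -4.18 to 2.11, adjusted p = 0.632). The within-group SD of log2 CPM was 1.38 to 1.64 for these enzymes, beside a median of 0.15 over all genes, and 98.7% to 99.4% of genes had a smaller SD. Leaving out betaSDmut 3 moved the median of the 9 genes to -2.73, with none called, beside 7.18% of all genes. In that fit 8 had an unadjusted p under 0.05, for which the share over all genes was not computed. The enzymes moved together across the islet libraries, so this is not a count of separate results. Leaving out betaSDmut 1 moved the median to -0.64. Leaving out control 1 gave -0.75.

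Bhlha15 did not follow the enzymes. It was at 70.8 and 52.9 CPM in controls and at 137, 58.4 and 50.7 CPM in betaSDmut 1 to 3, so the library with the lowest enzymes had the highest Bhlha15. Its log2 fold change was 0.40 (interval -0.92 to 1.72, adjusted p = 0.661), and without betaSDmut 1 it was -0.18. Ptf1a had 9 and 4 reads in controls and 1, 2 and 9 in betaSDmut, below the filter. Fitted with no filter its log2 fold change was -0.92 (SE 0.89, adjusted p = 0.602).

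Of the other 44 acinar genes 2 were called at 8 weeks, beside 7.94% of all genes tested, both higher in betaSDmut. Rab27b, a Rab GTPase of secretory granules, was at 4.96 and 4.16 CPM in controls and 11.3, 12.3 and 13.0 CPM in betaSDmut (log2 fold change 1.42, edgeR adjusted p = 0.00608). Myc, a transcription factor of growing cells, was at 5.29 and 4.24 CPM in controls and 14.9, 11.6 and 8.51 CPM in betaSDmut (log2 fold change 1.28, edgeR adjusted p = 0.0410). Both genes are also expressed outside acinar cells, and betaSDmut 1, the library lowest in enzymes, lay above both controls for each. The count was 3 without betaSDmut 1, beside 18.1% of all genes, 1 without betaSDmut 2, beside 2.52%, and 9 without betaSDmut 3, beside 7.18%. Leaving out either control leaves 1 control library, so calls of those fits are not given. The 19 other enzymes all had negative log2 fold changes, with a median of -1.13 and none called.

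Markers of other cells were read beside these values. Duct markers, 8 of 8 detected, summed to 334 and 247 CPM in 8-week controls and 167, 249 and 218 CPM in betaSDmut. Immune markers summed to 163 and 171 CPM in controls and 141, 195 and 434 CPM in betaSDmut 1 to 3. Their members went different ways, with negative log2 fold changes for Adgre1, Csf1r, Cd68 and Lyz2 and positive ones for Ptprc, Cd52, C1qa and Cd74. Mesenchyme and stellate markers, 8 of 8 detected, summed to 219 and 281 CPM in controls and 177, 164 and 117 CPM in betaSDmut, so each betaSDmut library lay below both controls. Red blood cell markers (5 genes) summed to 61.4 and 30.1 CPM in controls and 420, 35.2 and 123 CPM in betaSDmut 1 to 3, highest in the library with the lowest enzymes. Their part in the acinar levels was not tested.

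At 4 weeks none of the 10 genes was called by edgeR in betaKO against control, beside 1.56% of the 14942 genes tested, and none by DESeq2. Ctrb1 and Ptf1a had unadjusted p under 0.05, 2 of 10 beside 15.2% of all genes. The median log2 fold change of the 10 genes was 1.74, beside 0.00 over all genes. Of the 10 genes, 8 were higher in both betaKO libraries than in both controls, an order that 23.2% of all genes showed.

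Ctrb1 was at 899 and 493 CPM in 4-week controls and at 3116 and 1522 CPM in betaKO 1 and 2. The groups did not overlap, and its log2 fold change was 1.74 (SE 0.53, interval 0.14 to 3.33, edgeR adjusted p = 0.300). Cpa1 was at 496 and 279 CPM in controls and 1937 and 593 CPM in betaKO, a log2 fold change of 1.71 (interval -0.88 to 4.29).
Pnlip broke the pattern in 1 library. It was at 1083 and 551 CPM in controls and at 4064 and 742 CPM in betaKO 1 and 2, so betaKO 2 lay between the controls. Its log2 fold change was 1.56 (SE 1.10, interval -2.16 to 5.27), and -0.14 without betaKO 1.
Ptf1a, with 15 and 4 reads in controls and 28 and 11 in betaKO, was at 0.45 and 0.24 against 1.66 and 0.86 CPM. Its log2 fold change was 1.81 (SE 0.60, interval 0.33 to 3.29, edgeR adjusted p = 0.245). Bhlha15 was at 88.9 and 57.3 CPM in controls and 103 and 66.7 CPM in betaKO, a log2 fold change of 0.21 (interval -0.70 to 1.12).
Leaving out betaKO 1 lowered the median of the 10 genes from 1.74 to 0.68, and leaving out betaKO 2 raised it to 2.30.

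Of the other 44 acinar genes edgeR called none at 4 weeks, 15 had an unadjusted p under 0.05, beside 15.2% of all genes, and DESeq2 called 7, beside 5.15% of all genes by DESeq2. Leaving out any 1 library at 4 weeks leaves 1 library in a group, so calls of those fits are not given. All 19 other enzymes had positive log2 fold changes, with a median of 1.82. The granule and secretion genes had a median of 1.77, and the other regulators 0.26.

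Islets of betaKO 2 also carried intestinal transcripts. The 6 gut epithelium markers, all detected there, summed to 913 CPM in betaKO 2, 60.4 CPM in betaKO 1 and 89.5 and 106 CPM in the 4-week controls. Muc13, a mucin of the gut epithelium, was at 382 CPM in betaKO 2 and 0.41 CPM in betaKO 1, where Cdx2 and Fabp1 were at 0. Mesenchyme and stellate markers summed to 361 and 451 CPM in betaKO and 241 and 235 CPM in controls. Log2 fold changes were positive for Col1a1, Col1a2, Col3a1, Dcn and Lum and negative for Pdgfra, Pdgfrb and Acta2. Both betaKO libraries lay below both controls in red blood cell markers (5 genes), at 87.4 and 68.6 CPM against 673 and 237 CPM. The same held for endothelial markers (6 genes, all detected), at 338 and 409 CPM in betaKO and 479 and 560 CPM in controls. The part of these tissues in the acinar levels was not tested.

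**Figure D4:**
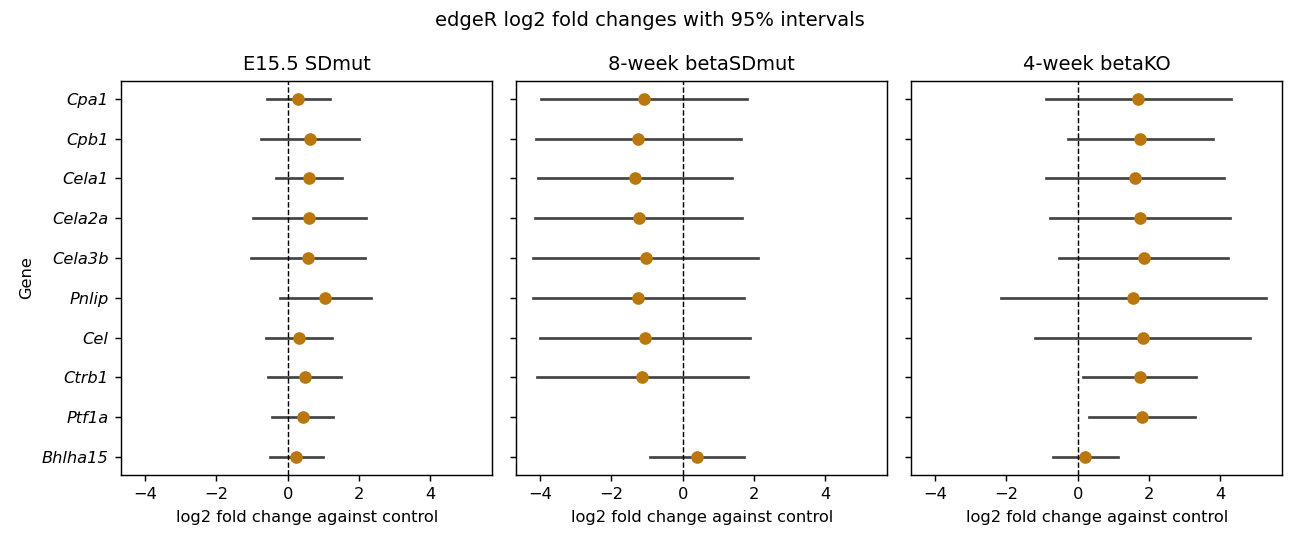
edgeR log2 fold change against control (x axis) of each acinar gene (y axis), point and 95% interval, in the E15.5, 8-week and 4-week comparisons. The enzymes lie near 0.5, -1.1 and 1.7, and only Ctrb1 and Ptf1a at 4 weeks have intervals that leave out 0, without passing the adjusted test; Ptf1a was not tested at 8 weeks.

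The 8-week and 4-week effects differ in allele, age and label at once, which cannot be told apart. In a model of all 9 islet libraries, the 8-week effect minus the 4-week effect was called for 0 of 10 genes, beside 1.21% of 15995 genes, and DESeq2 called none. One gene had an unadjusted p under 0.05, beside 13.7% of all genes. For 9 genes the difference lay between -3.01 (Cpb1, interval -6.70 to 0.69) and -2.75 (Ptf1a, interval -5.43 to -0.07, edgeR adjusted p = 0.350). For Bhlha15 it was 0.20 (interval -1.51 to 1.91). The median difference over the 10 genes was -2.88, beside 0.01 over all genes, and it was -4.40 without betaSDmut 3 and -1.90 without betaKO 1. Of the other 44 acinar genes none was called by edgeR, 11 had an unadjusted p under 0.05, beside 13.7% of all genes, and DESeq2 called 3, beside 4.06% of all genes by DESeq2. Leaving out betaSDmut 3 gave 1 call, beside 1.14% of all genes.

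Although the enzymes spanned up to 56.4-fold across islet libraries, their levels relative to one another varied less. Relative to Cpa1, the other 7 enzymes varied by 1.45-fold (Cela1) to 2.19-fold (Ctrb1) over the 9 libraries. Cel was at 94.4% to 140% of the Cpa1 level, and Cela1 at 126% to 182%. Ptf1a, from 1 to 28 reads, varied by 3.30-fold relative to Cpa1. The level of Bhlha15 varied by 2.71-fold, against 38.9-fold for Cpa1, and its ratio to Cpa1 by 52.0-fold, from 5.30% in betaKO 1 to 276% in betaSDmut 1. Across the 9 libraries Bhlha15 had r = -0.13 with the mean log2 CPM of the 10 genes, and the other 9 genes had r of 0.95 to 1.00.

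**Figure D5:**
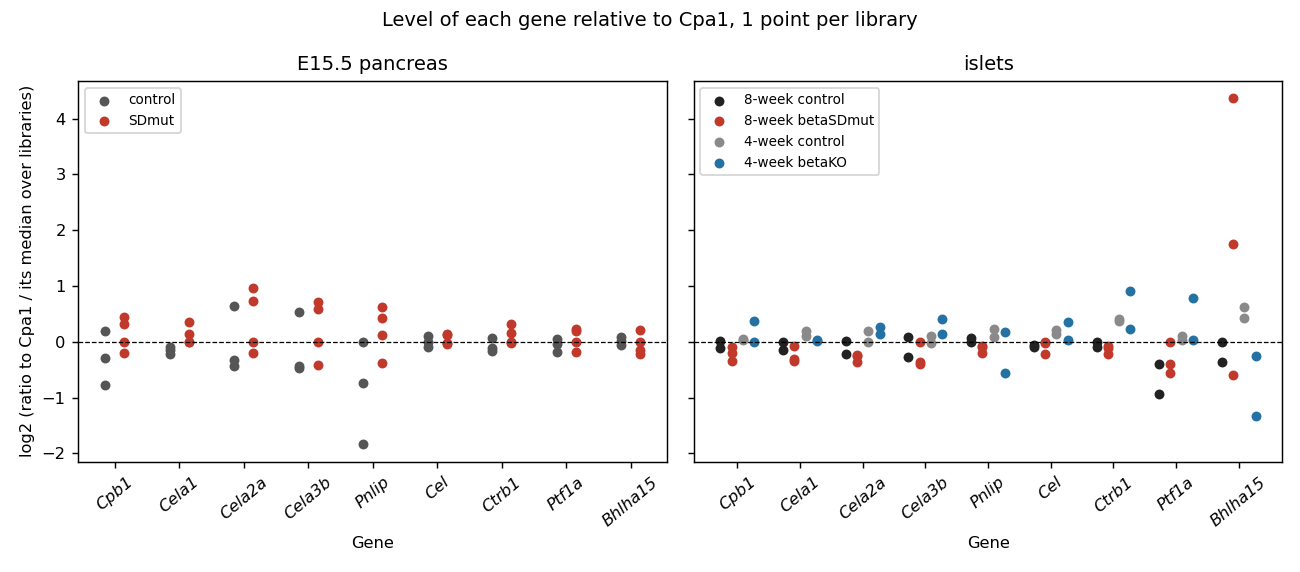
Level of each acinar gene relative to Cpa1 (y axis, log2 of the ratio over its median across libraries) for each gene (x axis), in E15.5 pancreas (left) and islets (right), 1 point per library. In islets Bhlha15 is spread widest, with betaSDmut 1 at the top, and Pnlip of betaKO 2 lies below the other Pnlip points.

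Library betaKO 2 stood apart in its proportions as well as in its gut transcripts. Pnlip was at 48.7% of the Ctrb1 level in betaKO 2 and at 112% to 151% in the other 8 islet libraries. In betaKO 1 the ratio was 130%, within the range of the controls.

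The median proportions differed between the embryo and the islets. Ptf1a was at 2.62% (median of 7 libraries) of the Cpa1 level in the embryo and at 0.0835% (median of 9) in islets. Bhlha15 was at a median of 6.22% of Cpa1 in the embryo (5.34% to 7.22%) and 13.4% in islets (5.30% to 276%), so its ranges overlapped. The count tables were made separately and hold different numbers of rows, so the tables themselves may contribute to these differences, which were not tested.

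The 5 genes outside the lists that followed the mean of the 10 most closely in islets were 2210010C04Rik (r = 1.00) and the amylase genes Amy2a2, Amy2a3, Amy2a4 and Amy2a1 (each r = 0.99 or 1.00). Amy2a2, Amy2a3 and Amy2a4 had the same values in each library and are near-identical copies, so they are not separate evidence. Of 11498 genes with a mean log2 CPM of at least 2, 11 had r over 0.95 over the 9 libraries.

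In the authors' deposited tables for islets, 9 of the 10 genes were listed, Ptf1a being the other, and none was called. The authors' log2 coefficients for betaSDmut against control had a median of -1.90 in their comparison of 2 groups. In their model of 3 groups it was -1.73, and that for betaKO against control was 1.43. That model names 1 control group for both contrasts, so they cannot both be age-matched, unlike the fits above. In the same model betaKO against betaSDmut, in which allele and age differ together, had a median of 3.08 over these genes, again with none called.

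In motor neuron progenitors the 10 genes together had 35 to 211 reads per library. Ctrb1, Cela2a, Cela3b and Ptf1a had 0 reads in all 8 libraries, which allows up to 0.169 CPM in the shallowest of them (3 reads, counting error only). Most of the reads were from Bhlha15, at 1.68 to 4.22 CPM.

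Sites of Nkx2.2 in MIN6 cells were located near the 10 genes. The authors' final set held 6473 sites, and 3 of the 10 genes, Cpa1, Cela3b and Ctrb1, had a site within 50 kb of their start, beside 25.4% of 18850 protein-coding genes of the islet table. Within 100 kb the count was 5, with Cela1 and Cel, beside 41.6% of genes. The nearest sites of the regulators lay 470 kb from Ptf1a and 133 kb from Bhlha15, outside both windows. The authors' deposited table joined a site to 1 of the 10 genes, Cpa1, at position 30628189 of chromosome 6 in mm10. That site lies 11.0 kb upstream of the start of Cpa1, in an intron of Cpa5. It had 60 and 45 reads in the ChIP replicates and log2 CPM values of 6.27 and 6.25, and 12.8% of the final sites had a lower mean. The 300 bases around it (chr6:30628039-30628338, GRCm38, plus strand) held CACTTNA once, starting 51 bases after the site and reading TNAAGTG on this strand, as did 20.1% of windows of this length at the final sites. The match is in capitals.
Cpa1 site: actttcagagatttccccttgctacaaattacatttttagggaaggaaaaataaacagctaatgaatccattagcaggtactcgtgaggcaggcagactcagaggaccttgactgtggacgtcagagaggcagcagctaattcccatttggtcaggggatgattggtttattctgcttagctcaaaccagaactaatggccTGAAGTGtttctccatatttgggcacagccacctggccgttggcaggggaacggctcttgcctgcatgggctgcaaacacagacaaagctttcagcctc
The site near Ctrb1 lies 45.5 kb upstream, in an intron of Bcar1, at log2 CPM of 6.93 and 7.13, and that near Cela3b lies 18.2 kb downstream of the start between genes, at 6.30 and 6.54. No enrichment over input was computed, and MIN6 cells are not acinar cells.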

How the data were processed

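RNA-seq covered embryonic pancreas, islets and progenitors. The authors deposited read counts per gene without normalization, per the deposited description, and FPKM for islets. STAR, Cufflinks, DESeq2, edgeR 3.20.9, limma 3.34.9, bedtools 2.17.0 and the build mm10 are named in the submitters' processing notes, without their roles; use of strand is not given in the sources used here. The deposited comparisons hold log2 coefficients and p-values with calls written as a score of -1, 0 or 1, per the file headers. For ChIP-seq the authors deposited counts at GEM events and log2 CPM at final sites.

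The main test of the counts was that of edgeR 4.0.16, run under R 4.3.3 (TMM factors, filterByExpr, robust quasi-likelihood test, Benjamini-Hochberg adjustment over all genes tested, threshold 0.05), using the 7 embryonic, the 5 8-week or the 4 4-week libraries, or all 9 islet libraries for the difference. SE is the absolute log2 fold change over the square root of F. CPM values use TMM over all libraries of a table. Ratios and correlations are descriptions. Genes were named by rule: the 10 members, Nkx2-2, other acinar genes called (at most 4 per list), and the 5 most alike genes by Pearson r (mean log2 CPM of at least 2, prior count 2). The members and lists were chosen with earlier results of these data known. Alternatives were DESeq2 1.42.0, RLE factors, total library sizes, library sizes without acinar genes, other filters, leaving out each library, and blocks. Those added after seeing the data were the fits without the libraries with muscle RNA and with only the title number that 2 controls and 2 mutants share. The fits were checked on simulated counts. Of simulated log2 changes of size 1, 26.0% were called in the embryo, 74.2% at 8 weeks and 55.1% at 4 weeks. False calls made up 4.72%, 6.70% and 0.735% of calls. The simulated spread was the trend over genes of like level, while the enzymes spread more than most genes. Recovery at the spread of the enzymes was not measured. Sequences are from RefSeq, matched by symbol. In islets, deviations of same-numbered libraries were taken from the mean of libraries 1 and 2 of each group. With 2 libraries the deviations mirror each other, so both pairs give the same correlation. It was -0.03 at 8 weeks and 0.13 at 4 weeks, 1 value each. Such a value cannot decide whether the numbers mark pairs. The numbers were not taken as pairs.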

Additional observations from a re-analysis of the deposited data

How the results depend on the processing

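In the fit of embryonic controls 1 and 2 and SDmut 1 and 2 alone, which share a title number and were set apart as an alternative added after seeing the data, the embryonic log2 fold changes reversed for 9 genes: Cpa1 -0.39, Cpb1 -0.26, Cela1 -0.17, Cela2a -0.084, Cela3b -0.30, Cel -0.40, Ctrb1 -0.27, Ptf1a -0.32 and Bhlha15 -0.41 (median -0.28). Bhlha15 reversed at 8 weeks to -0.18 without betaSDmut 1, at 4 weeks to -0.07 without control 2 and -0.14 without betaKO 1, and in the difference to -0.39 without betaSDmut 1, -0.16 without 4-week control 1 and -0.08 without betaKO 2. Pnlip reversed at 4 weeks to -0.14 without betaKO 1. With DESeq2, called genes among the other 44 acinar genes numbered 1 in the embryo (0.134% of all genes), 7 at 4 weeks (5.15%) and 3 in the difference (4.06%). With no filter they numbered 1 at 4 weeks (1.83% of all genes). When 1 betaSDmut library was left out they numbered 1 to 9 at 8 weeks (2.52% to 18.1% of all genes) and 0 to 1 in the difference (0.415% to 2.15%). Leaving out 1 library in turn, Bhlha15 ranged from -0.18 to 0.66 at 8 weeks, from -0.14 to 0.57 at 4 weeks and from -0.39 to 0.55 in the difference, and Pnlip from -0.14 to 2.31 at 4 weeks. The median of the difference was -4.40 without betaSDmut 3. Of the 10 genes, 5 had a site within 100 kb and 4 within 50 kb of any GEM event, against 3 within 50 kb in the final set. RLE factors, total library sizes and library sizes without acinar genes changed no call of the 10 genes.

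With the replicate block, which is not taken as a pairing here, 4 of the 10 genes were called at 4 weeks. They were Cpb1 at 1.67 (edgeR adjusted p = 0.0423), Cela2a at 1.64 (0.0450), Cela3b at 1.76 (0.0400) and Ctrb1 at 1.71 (0.0277). Of the other 44 acinar genes 14 were called, beside 1.76% of all genes tested with the block. This 4-week fit estimates nearly as many terms as it has libraries, so its calls rest on little residual information. No conclusion is drawn from them. At 8 weeks the block called 0 of the 9 genes and 4 of the 44 (median -2.82), beside 4.91% of all genes. In the difference it called 0 and 0 (median -4.23). No other 8-week library shares the number of betaSDmut 3, so its block term absorbs that library, which then does not inform the contrast. The medians with betaSDmut 3 left out and no block were -2.73 at 8 weeks and -4.40 in the difference. Whether same-numbered islet libraries are pairs was not decided by the values here. Blocking on the title number in the embryo called none (median 0.44). SDmut 4, alone in its title number, likewise did not inform that contrast. With 2 to 4 libraries a group and spreads of this size, the intervals do not exclude changes of several fold in either direction for the enzymes in 8-week islets.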
